A study of Homo sapiens with 12 samples.

Results

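The genes described are 10 parts of the NF-kB system, namely the subunit genes RELA, NFKB1, NFKB2, RELB and REL, the inhibitor genes NFKBIA and NFKBIE, and the feedback and output genes TNFAIP3, BIRC3 and LTB. They were taken by gene symbol from the 20375 genes listed for each library, and 10 of 10 were present. Messenger RNA was measured by RNA sequencing in PE/CA-PJ41, an established human line of oral squamous cell carcinoma. Cells were exposed for 48 h to 10% platelet-rich plasma (PRP, 4 libraries) or to 10% human plasma (4 libraries), or were left untreated (control, 4 libraries). All groups are the same line, and no genetic change is named for any of them. How long control cells were cultured is not stated, nor whether replicates were separate cultures, so the p-values reflect library-to-library spread that may be technical. The donors of the plasma and PRP, and whether these were pooled, are not given in the sources used here.

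NF-kB proteins act as pairs of subunits that bind kappa B sites in DNA. RELA, REL and RELB carry activation domains, while NFKB1 and NFKB2 encode precursors that are shortened to DNA-binding partners. In the canonical route a kinase complex marks IkB inhibitors such as the products of NFKBIA and NFKBIE for destruction and frees dimers that contain RELA. In the non-canonical route the kinase MAP3K14 drives the processing of the NFKB2 precursor, which releases dimers that contain RELB. Several of these genes are themselves known targets of NF-kB, which makes them part of feedback loops. Squamous epithelium uses the system in inflammation and defence.

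Because 7 of the 8 members with a listed promoter held a match to the kappa B consensus, the promoter windows of those the results turn on are shown. Each window runs from 250 bases before to 50 bases after a transcript start (RefSeq, GRCh38.p14), 5′ to 3′ on the strand of the gene. The motif searched, on both strands, was the kappa B consensus of 10 bases. RELB and NFKBIE were not matched to a window. Capitals mark the matches, and overlapping matches form 1 run of capitals. Of 34943 windows of the same length, 5.9% held a match, and of 27167 genes 7.09% had at least 1 window with a match. The members were picked as NF-kB genes, several of them known targets, so their count of matches is no result of these data. The windows come from chr14:35404700-35404999 (minus strand) for NFKBIA, chr6:137867009-137867308 (plus strand) for TNFAIP3, chr6:31582375-31582674 (minus strand) for LTB, and chr11:102317234-102317533 (plus strand) for BIRC3. For NFKB2, which has 3 listed starts, they come from chr10:102394328-102394627 and chr10:102395455-102395754 (plus strand), and the first NFKB2 window, which held no match, is not shown.
NFKBIA: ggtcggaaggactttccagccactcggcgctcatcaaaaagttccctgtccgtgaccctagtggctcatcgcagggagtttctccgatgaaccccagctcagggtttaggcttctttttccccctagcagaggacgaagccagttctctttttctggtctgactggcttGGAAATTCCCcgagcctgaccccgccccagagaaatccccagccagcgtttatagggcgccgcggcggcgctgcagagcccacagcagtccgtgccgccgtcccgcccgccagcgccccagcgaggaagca
TNFAIP3: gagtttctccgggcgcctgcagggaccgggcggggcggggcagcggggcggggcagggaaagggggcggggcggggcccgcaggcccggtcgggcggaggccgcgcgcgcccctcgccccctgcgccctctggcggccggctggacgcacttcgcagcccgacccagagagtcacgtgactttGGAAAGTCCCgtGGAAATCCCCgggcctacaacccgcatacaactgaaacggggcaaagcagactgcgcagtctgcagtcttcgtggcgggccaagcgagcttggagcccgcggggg
LTB: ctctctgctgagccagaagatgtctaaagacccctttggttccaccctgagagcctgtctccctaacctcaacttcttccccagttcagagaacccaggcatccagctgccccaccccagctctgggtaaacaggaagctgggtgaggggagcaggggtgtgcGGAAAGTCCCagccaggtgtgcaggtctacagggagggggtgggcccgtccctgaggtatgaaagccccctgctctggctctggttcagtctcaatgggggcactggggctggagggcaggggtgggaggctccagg
BIRC3: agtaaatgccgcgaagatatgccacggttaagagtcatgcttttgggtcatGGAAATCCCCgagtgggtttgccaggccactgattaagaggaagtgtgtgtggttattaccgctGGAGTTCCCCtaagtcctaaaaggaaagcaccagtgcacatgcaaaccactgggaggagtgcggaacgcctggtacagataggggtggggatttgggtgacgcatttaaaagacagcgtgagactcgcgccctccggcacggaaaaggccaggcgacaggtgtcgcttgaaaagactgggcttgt
NFKB2, middle start: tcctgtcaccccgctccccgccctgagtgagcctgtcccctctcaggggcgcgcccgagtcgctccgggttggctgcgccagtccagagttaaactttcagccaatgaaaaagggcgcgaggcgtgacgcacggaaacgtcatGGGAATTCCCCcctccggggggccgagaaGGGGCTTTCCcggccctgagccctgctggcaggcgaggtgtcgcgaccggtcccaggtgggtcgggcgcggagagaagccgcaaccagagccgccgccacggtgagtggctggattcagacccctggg
NFKB2, last start: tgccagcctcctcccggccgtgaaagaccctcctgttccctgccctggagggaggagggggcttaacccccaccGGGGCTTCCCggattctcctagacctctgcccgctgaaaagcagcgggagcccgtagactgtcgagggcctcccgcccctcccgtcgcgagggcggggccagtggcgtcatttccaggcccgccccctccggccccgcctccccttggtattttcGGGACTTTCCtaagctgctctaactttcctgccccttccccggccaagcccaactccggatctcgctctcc
The remaining members with a match were NFKB1, in 1 of its 2 windows, and REL, and the 2 RELA windows held none. The NFKBIA match begins 81 bases before the start and the LTB match 87 bases before it. TNFAIP3 has its 2 matches close together, beginning 67 and 55 bases before the start. A match is a description of letters in this window and shows no binding.

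In the GENCODE annotation of GRCh38, the subunit genes lie at chr11:65653596-65663094 (RELA, minus strand), chr4:102501329-102617302 (NFKB1, plus), chr10:102394110-102402529 (NFKB2, plus), chr19:45001430-45038198 (RELB, plus) and chr2:60881521-60931610 (REL, plus). The inhibitor genes lie at chr14:35401511-35404749 (NFKBIA, minus) and chr6:44258166-44265788 (NFKBIE, minus). TNFAIP3 lies at chr6:137867188-137883312 (plus), BIRC3 at chr11:102317450-102339403 (plus) and LTB at chr6:31580525-31582522 (minus). Values are for whole genes. Exons of REL, RELA and TNFAIP3 each overlap those of 1 non-coding gene, on the same strand for REL and on the opposite strand for RELA and TNFAIP3. Reads from the REL overlap cannot be told apart by strand. For RELA and TNFAIP3 this depends on the use of strand, which is not given.

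RELA, the main activating subunit, had the highest level of the 10 genes in control cells, and LTB the lowest. Levels are given in TPM, which is estimated reads divided by effective transcript length and scaled to the same total in every library. Control means ran in the order RELA 249, NFKBIA 120.8, NFKB2 73.6, RELB 30.7 and NFKB1 27.4 TPM. Below these came BIRC3 19.2, TNFAIP3 17.0, NFKBIE 14.1, REL 12.0 and LTB 2.48 TPM. The neighbours RELB and NFKB1, and BIRC3 and TNFAIP3, overlapped between control libraries, and the other neighbours did not. With PRP and with plasma the NFKBIA libraries overlapped those of RELA, at means of 197 and 206 TPM for NFKBIA against 217 for RELA in each. The 10 squamous marker genes examined summed to 14220 to 15810 TPM with PRP, 14190 to 15530 with plasma and 11590 to 13000 in control. KRT5 was the largest part, at means of 7677, 7645 and 4784 TPM, while DSG3 had 27.2 TPM with PRP. In the test described below, 2 of the 10 rose and 2 fell with PRP, and 2 rose and 3 fell with plasma. This is beside 53.1% and 49.3% of all tested genes in either direction, so the sums show no general rise of these markers. The libraries held 36258955 to 41976136 estimated reads.

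**Figure D1:**
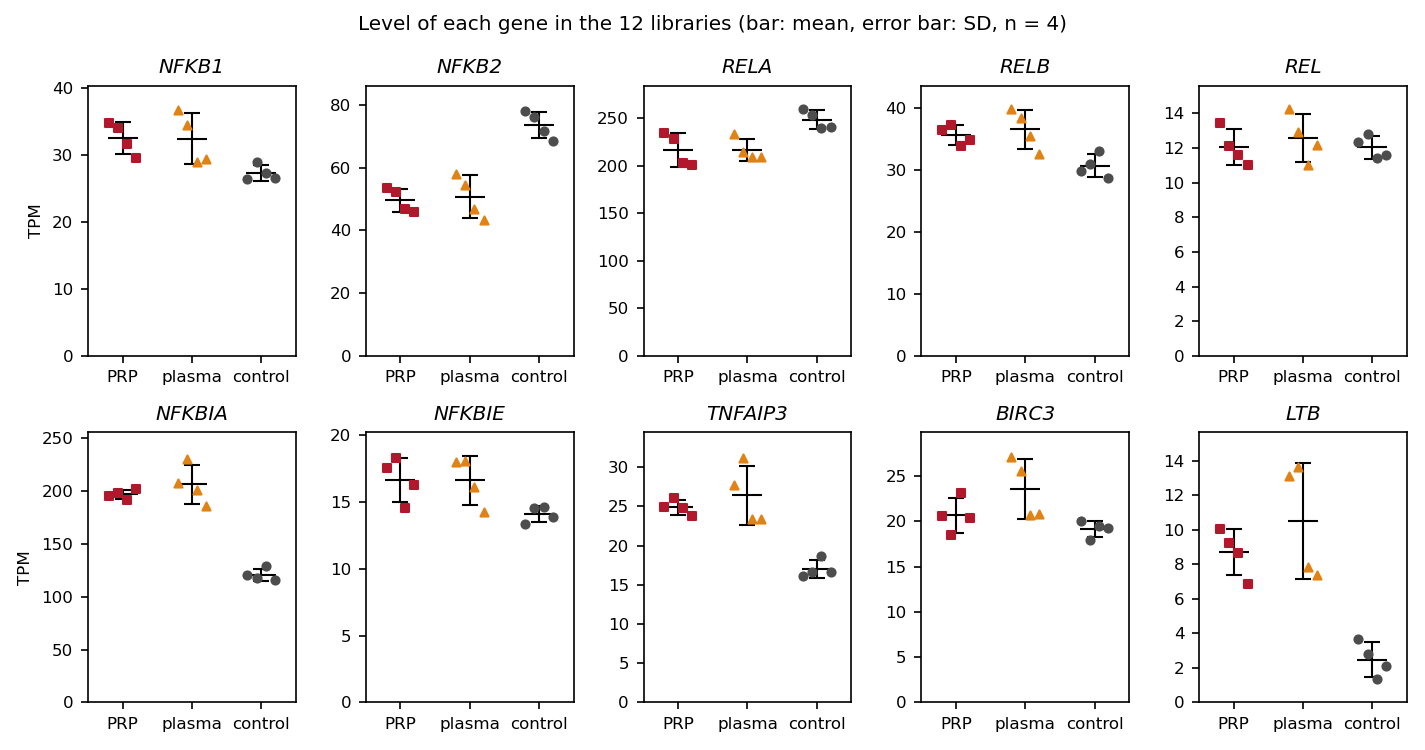
TPM of the 10 genes in each library, with PRP (squares), plasma (triangles) and control (circles), and the mean with its SD over n = 4. NFKBIA, TNFAIP3 and LTB lie above control in each treated library, and NFKB2 and RELA lie below it.

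PRP was first set against control. NFKBIA, TNFAIP3, LTB, NFKB1, RELB and NFKBIE rose and NFKB2 and RELA fell, while REL and BIRC3 did not pass the test. The test was limma on log2(TPM + 1) with Benjamini-Hochberg adjustment at 0.05 over the 12517 genes that reached 1 TPM in 4 or more libraries, and 10 of 10 members were among them. Of all genes tested, 21.7% passed as higher and 31.5% as lower, or 53.1% in either direction, against 6 and 2 of the 10 members. After median centring of the libraries 3534 genes were higher and 3016 lower, in place of 2711 and 3941, and the members kept counts of 6 and 2. The members' median log2 difference was 0.21, beside -0.06 over all tested genes. Plasma against control gave 7 members higher and 2 lower, with 20.3% of all genes passing as higher, 29.0% as lower and 49.3% in either direction. There centring gave 3309 genes higher and 2803 lower, in place of 2544 and 3629, with members again at 7 and 2. The members' median log2 difference with plasma was 0.24, beside -0.05 over all genes. The 2 comparisons share their control libraries. In such bulk samples fewer cells of a type and less RNA per cell cannot be told apart.

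**Figure D2:**
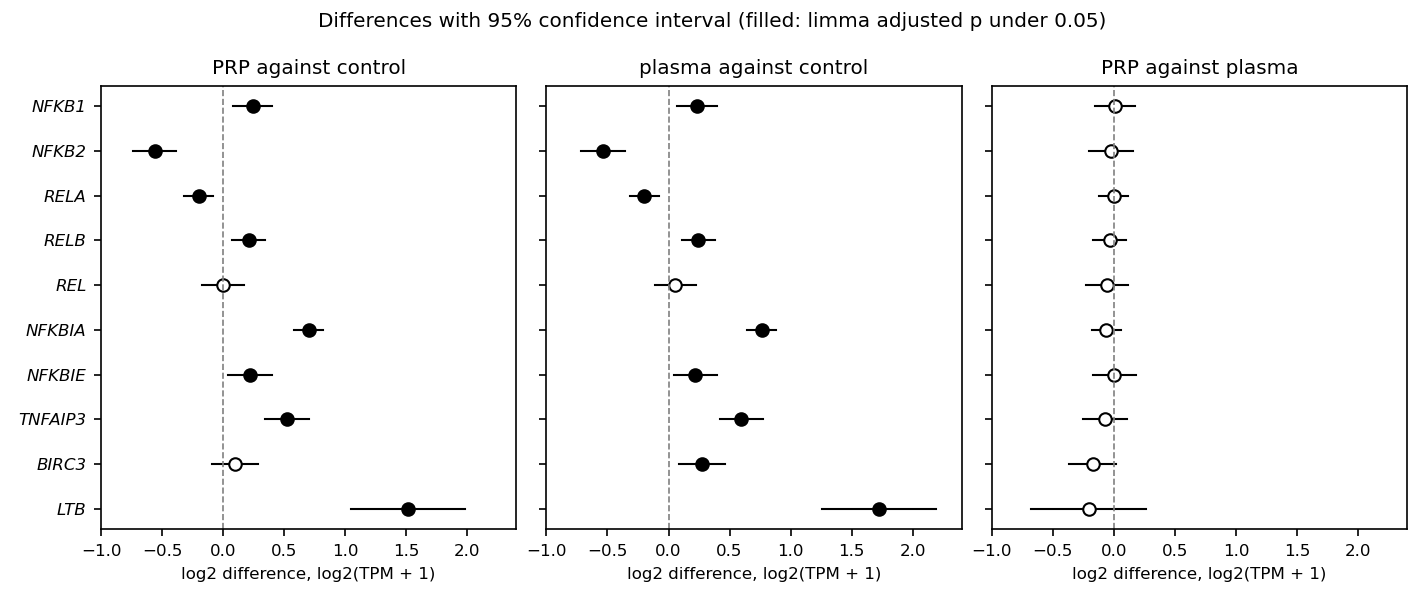
Differences in log2(TPM + 1) with 95% confidence intervals for the 10 genes in PRP against control, plasma against control and PRP against plasma, with filled points at limma adjusted p under 0.05. LTB shows the widest interval, and no gene is filled in PRP against plasma.

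NFKBIA encodes IkB alpha, which holds RELA dimers in the cytoplasm and is resynthesised after their activation. It had 196, 198, 192 and 202 TPM in the PRP libraries, 208, 231, 201 and 186 in the plasma libraries, and 120.2, 118, 129 and 116 in the control libraries. Each treated library lay above each control library. The log2 difference was 0.70 ± 0.05 with PRP (SE, limma adjusted p = 2.1e-07) and 0.76 ± 0.05 with plasma (adjusted p = 1.3e-07). NFKBIE, which encodes the related inhibitor IkB epsilon, had 17.5, 18.3, 14.5 and 16.2 TPM with PRP, 18.0, 18.1, 16.1 and 14.2 with plasma, and 13.3, 14.5, 14.6 and 13.9 in control. Its libraries overlapped control in both comparisons. NFKBIE had a log2 difference of 0.22 ± 0.08 with PRP (limma adjusted p = 0.0366) and 0.22 ± 0.08 with plasma (adjusted p = 0.0412), and both calls ended in 8 of 22 alternative settings, among them the absence of a filter on low values (adjusted p = 0.0581 and 0.065). The PRP call ended without control replicate 1, 2 or 4 or PRP replicate 1, 2 or 4 (limma adjusted p from 0.0509 to 0.111). With plasma it ended without control replicate 1, 2 or 4 or plasma replicate 1, 2 or 3 (0.0564 to 0.117).

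TNFAIP3 encodes a ubiquitin-editing enzyme that shuts the canonical route down. Its level was 24.9, 26.1, 24.7 and 23.8 TPM with PRP, 27.7, 31.1, 23.4 and 23.3 with plasma, and 16.1, 16.6, 18.7 and 16.7 in control. No treated library overlapped the control range. TNFAIP3 had a log2 difference of 0.52 ± 0.08 with PRP (limma adjusted p = 0.000125) and 0.60 ± 0.08 with plasma (adjusted p = 4.97e-05).

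BIRC3 encodes a ubiquitin ligase that restrains cell death at the TNF receptor and limits MAP3K14. It had 20.6, 18.5, 23.2 and 20.3 TPM with PRP, 27.1, 25.6, 20.7 and 20.8 with plasma, and 20.0, 17.9, 19.5 and 19.3 in control. PRP overlapped control, and the plasma libraries all lay above it, with replicates 1 and 2 highest. BIRC3 had a log2 difference of 0.10 ± 0.09 with PRP (limma adjusted p = 0.373) and 0.27 ± 0.09 with plasma (adjusted p = 0.0199). The call with plasma ended without control replicate 2 (adjusted p = 0.0573), plasma replicate 1 (0.0647) or plasma replicate 2 (0.0619). Between PRP and plasma the log2 difference was -0.18, with a 95% interval of -0.37 to 0.01 (adjusted p = 0.664), so the passing of plasma alone does not show that the treatments differed.

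LTB encodes lymphotoxin beta, a TNF family ligand that signals through LTBR and is best known from lymphocytes. It had 10.05, 9.26, 8.63 and 6.89 TPM with PRP, 13.1, 13.7, 7.83 and 7.40 with plasma, and 3.70, 2.78, 1.34 and 2.12 in control. The highest control library stayed below the lowest treated one. These levels rest on 118 to 154 estimated reads per library with PRP, 125 to 213 with plasma and 22 to 57 in control. The ratio of mean TPM to control was 3.50 with PRP and 4.23 with plasma, and the log2 difference was 1.51 ± 0.22 (limma adjusted p = 5.65e-05) and 1.72 ± 0.22 (adjusted p = 2.25e-05). A pseudocount of 5 in place of 1 gave 0.88 and 1.03, and both comparisons still passed.

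Lymphocyte markers were examined beside LTB, since both additives come from blood. Of 20 such genes 17 had a mean under 1 TPM and 5 had no read in any library, among them MS4A1, CD79B and CD4. Their summed level was 13.8 to 20.6 TPM with PRP, 12.8 to 16.8 with plasma and 14.9 to 20.9 in control, and IL7R and CORO1A, which passed the filter, made up much of it. Of the 3 tested lymphocyte genes, none passed with PRP, and 1 passed as higher and 1 as lower with plasma. The T cell gene CD3E had at most 1 read with PRP, 2 with plasma and 0 in control. Not every gene of the list was as empty. CD3D had 7 to 18 reads with PRP, 6 to 25 with plasma and 12 to 22 in control. PTPRC, which was not tested, had 2 to 7 reads with PRP, 2 to 9 with plasma and 25 to 35 in control. LTA, which encodes the partner of lymphotoxin beta in its membrane complex, had at most 2, 2 and 5 reads in the same order. The myeloid list of 12 genes summed to 6.72 to 8.82 TPM with PRP, 6.19 to 8.32 with plasma and 3.71 to 5.21 in control. CD14 was the highest of the 2 myeloid genes that passed the filter, and 4 had no read in any library, namely FCGR3A, MPO, CSF3R and TYROBP. Their part in the level of CD14 was not tested. The 12 platelet genes summed to 14.6 to 16.8, 15.3 to 16.5 and 13.0 to 15.3 TPM with PRP, with plasma and in control. Most of this came from NRGN (means 6.15, 6.77 and 5.49 TPM) and GNG11 (8.78, 8.60 and 8.18), neither of which passed against control. The other 10 had a mean under 1 TPM, and 4 of them, PF4, GP9, SELP and TREML1, had no read in any library.

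Among the subunits, NFKB2 fell most. It had 53.4, 52.1, 47.0 and 45.9 TPM with PRP, 58.1, 54.6, 46.9 and 43.3 with plasma, and 77.9, 76.2, 71.6 and 68.6 in control. All treated libraries lay below all control libraries. The log2 difference was -0.56 ± 0.08 with PRP (limma adjusted p = 6.86e-05) and -0.54 ± 0.08 with plasma (adjusted p = 0.000121). Both calls held in 22 of 22 alternatives, with log2 differences from -0.60 to -0.46 over the 2 comparisons. Its promoter windows printed above hold kappa B matches, as do those of NFKBIA, TNFAIP3 and LTB, which rose. Matches were also found for NFKB1, BIRC3 and REL, of which REL passed with neither treatment, while RELA, which fell, had none. Whether the matches bear on these changes was not tested.

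RELA had 235, 228, 203 and 201 TPM with PRP, 234, 214, 209 and 210 with plasma, and 260.0, 254, 240 and 241 in control. The treated libraries did not reach the control range. RELA differed by a log2 value of -0.20 ± 0.05 in each comparison (limma adjusted p = 0.00707 with PRP and 0.0082 with plasma). From estimated reads, by voom with median-of-ratios scaling, it was -0.117 with PRP (adjusted p = 0.00685) and -0.095 with plasma (adjusted p = 0.0232).

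RELB, the partner of the processed NFKB2 product, had 36.4, 37.3, 33.8 and 34.9 TPM with PRP, 39.7, 38.4, 35.4 and 32.6 with plasma, and 29.8, 31.0, 33.1 and 28.8 in control. PRP libraries lay above the control range, and plasma replicate 4 fell within it. The log2 difference was 0.21 ± 0.06 with PRP (limma adjusted p = 0.0126) and 0.24 ± 0.06 with plasma (adjusted p = 0.00575). NFKB1, whose product pairs with RELA, had 34.9, 34.0, 31.7 and 29.6 TPM with PRP, 36.8, 34.5, 29.0 and 29.5 with plasma, and 26.5, 29.1, 27.3 and 26.6 in control. The lowest plasma library was level with the highest control library. The log2 difference was 0.24 ± 0.08 with PRP (limma adjusted p = 0.0153) and 0.23 ± 0.08 with plasma (adjusted p = 0.0203). The call with plasma ended without plasma replicate 1 (adjusted p = 0.0657) or plasma replicate 2 (0.0605).

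REL, a subunit prominent in lymphoid cells, had 13.4, 12.1, 11.6 and 11.0 TPM with PRP, 14.3, 12.9, 11.0 and 12.2 with plasma, and 12.4, 12.8, 11.4 and 11.6 in control. The 3 groups overlapped. REL had a log2 difference of 0.00 with PRP (95% interval -0.17 to 0.17, limma adjusted p = 0.998) and 0.06 with plasma (interval -0.11 to 0.23, adjusted p = 0.582). After median centring these were 0.06 and 0.11, which turns the sign with PRP, and neither passed.

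The shares of NFKB2, RELB, NFKB1 and REL in the subunit transcripts did not overlap between treated and control libraries, and that of RELA did. NFKB2 made up 14.3% ± 0.06 of the summed subunit TPM with PRP, 14.5% ± 0.99 with plasma and 18.7% ± 0.40 in control (SD, n = 4 each). RELB made up 10.3% ± 0.43, 10.5% ± 0.38 and 7.82% ± 0.56, and NFKB1 9.40% ± 0.22, 9.28% ± 0.47 and 6.98% ± 0.31, in the order PRP, plasma and control. REL made up 3.48% ± 0.12 with PRP, 3.60% ± 0.19 with plasma and 3.07% ± 0.08 in control. RELA made up 62.5% ± 0.42 with PRP, 62.2% ± 1.69 with plasma and 63.4% ± 0.71 in control. The summed level of the 5 subunits was 322 to 373 TPM with PRP, 327 to 382 with plasma and 376 to 406 in control. Its means were 346.5, 348.9 and 392.2 TPM. A share moves with this total, so the REL share was higher although REL itself did not pass the test. How often shares of other genes fail to overlap was not computed.

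Ratios within a library do not depend on how libraries are scaled to each other, and are given as a description. NFKBIA relative to RELA was 0.913 ± 0.077 with PRP, 0.953 ± 0.089 with plasma and 0.487 ± 0.036 in control. NFKBIA relative to NFKB2 was 3.99 ± 0.33, 4.10 ± 0.35 and 1.65 ± 0.12 in the same order. RELB relative to NFKB2 was 0.719 ± 0.032, 0.724 ± 0.036 and 0.418 ± 0.033. In each of these ratios the lowest treated library exceeded the highest control library. Each sets a member that rose over 1 that fell, so this separation follows from the differences given above and is no further evidence. NFKBIE relative to NFKBIA was 0.084 ± 0.008 with PRP, 0.081 ± 0.005 with plasma and 0.117 ± 0.006 in control. Each treated library lay below each control library. This, too, follows from the larger rise of NFKBIA given above and is no further evidence. Both genes passed as higher, but the NFKBIE calls ended in 8 of 22 alternatives.

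**Figure D3:**
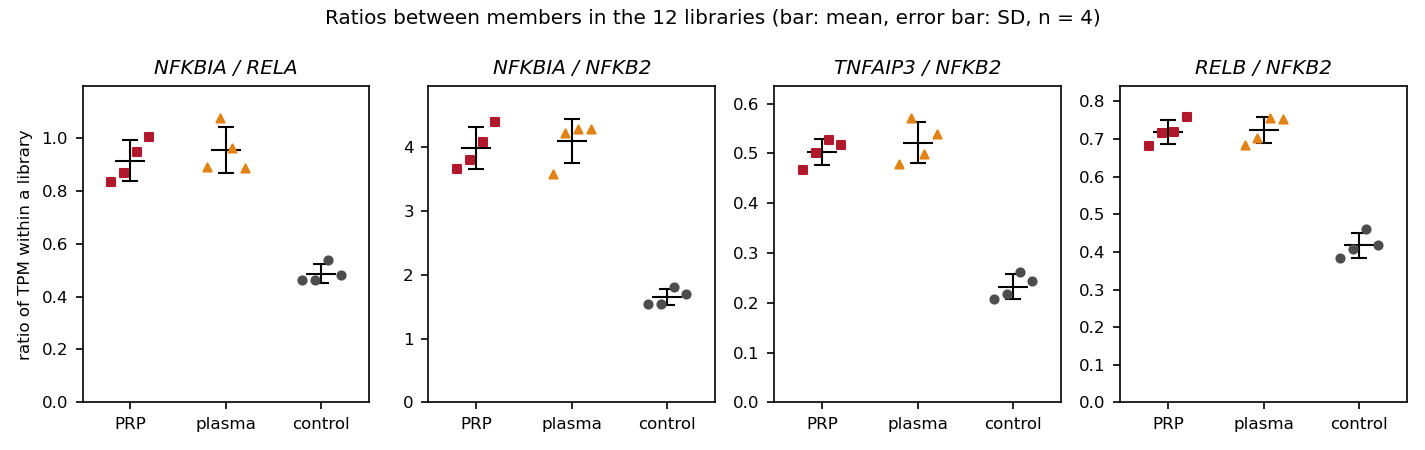
Ratio of 2 members' TPM within each library for NFKBIA to RELA, NFKBIA to NFKB2, TNFAIP3 to NFKB2 and RELB to NFKB2, with mean and SD over n = 4. In each panel the PRP and plasma libraries sit above the control libraries, with NFKBIA to NFKB2 at means of 3.99, 4.10 and 1.65.

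PRP was then compared with plasma. None of the 10 members passed, with 0 also at an unadjusted p under 0.05 in limma and 0 by voom, where 0.0639% of all genes passed in limma. Groups overlapped in each of the 10 members, while 5.22% of all tested genes had no overlap. Differences ran from -0.21 for LTB (95% interval -0.68 to 0.26) to 0.01 for NFKB1 (interval -0.15 to 0.17). For NFKBIA the difference was -0.06 with an interval of -0.18 to 0.05, and for NFKB2 -0.02 with an interval of -0.20 to 0.15. Between treated and control groups, 7 members did not overlap with PRP, against 46.8% of all tested genes, and 6 with plasma, against 43.9%.

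Replicates of a group were not equally high for these genes. The plasma libraries numbered 1 and 2 lay above those numbered 3 and 4 in 10 of 10 members, and in 8 after each library was centred on its median. With PRP this held for 8 members and for 6 after centring, and in control for 4 and 4. Over all tested genes, before centring, the same order was found in 35.7% with PRP, 36.4% with plasma and 36.9% in control. The share of all genes after centring was not computed, so the centred counts have no such value beside them. Without the 3 libraries numbered 1, 5 members passed against control with PRP and 5 with plasma, namely NFKBIA, TNFAIP3 and LTB as higher and NFKB2 and RELA as lower. In that fit 48.0% of all tested genes passed with PRP and 44.2% with plasma, so the members' count is near the background. NFKB1 (adjusted p = 0.0547 with PRP and 0.117 with plasma), RELB (0.0525 and 0.0513), NFKBIE (0.164 and 0.213) and BIRC3 with plasma (0.0788) did not. What sets these libraries apart was not tested.

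Other genes of the pathway were listed by role, 135 in number, of which 116 passed the filter. Each count below stands beside 21.7% of all tested genes higher and 31.5% lower with PRP, and 20.3% higher and 29.0% lower with plasma. Of 8 tested ligands, 7 rose and 1 fell with PRP, and 5 rose and 1 fell with plasma, with median log2 differences of 0.65 and 0.58. TNF and IL36G reached at most 0.446 and 0.408 TPM in control, so they passed the filter only through treated libraries. Such genes could be tested only when higher with treatment, which favours rises in the count. TNF, a classic inducer of NF-kB, was 1.19 ± 0.10 TPM with PRP, 1.30 ± 0.23 with plasma and 0.363 ± 0.068 in control (limma adjusted p = 6.91e-05 and 3.57e-05). IL1A, an alarmin of the epithelium, was 13.8 ± 1.19 TPM with PRP, 13.1 ± 2.30 with plasma and 6.35 ± 1.51 in control. TNFSF15 was 16.0 ± 0.63, 15.7 ± 0.23 and 10.1 ± 0.50 TPM, and the death ligand TNFSF10 168 ± 11.9, 192 ± 15.6 and 140.0 ± 9.63 TPM, in the same order. IL18, a cytokine processed by inflammasomes, fell to 68.7 ± 4.50 TPM with PRP and 69.0 ± 4.45 with plasma, against 85.2 ± 3.46 in control.

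Receptors did not move one way. Of 19 tested, 4 rose and 7 fell with PRP, and 6 rose and 6 fell with plasma, with median log2 differences of -0.14 and 0.01. These 11 and 12 genes of 19 are near the 53.1% and 49.3% of all genes that passed in either direction. The split with PRP was 4 higher and 4 lower after median centring and 6 and 6 by voom with median-of-ratios scaling. TLR3, a sensor of double-stranded RNA, was 18.6 ± 1.93 TPM with PRP, 21.0 ± 1.37 with plasma and 10.2 ± 0.86 in control. CD14, a co-receptor for bacterial lipid, rose with log2 differences of 1.25 with PRP and 1.11 with plasma. IL1R1, which binds IL1A, rose by 0.24 and 0.22 on the log2 scale. TNFRSF12A, a receptor for a TNF family ligand known to engage the non-canonical route, fell to 128 ± 5.41 TPM with PRP and 115 ± 6.93 with plasma, against 217 ± 21.1 in control (limma adjusted p = 5.11e-07 and 1.19e-07). LTBR, the receptor for lymphotoxin beta, fell to 187 ± 4.48 and 198 ± 7.28 TPM, against 221 ± 7.12 in control (adjusted p = 6.55e-05 and 0.00247). The death receptor TNFRSF10A was 9.00 ± 0.33, 9.14 ± 0.42 and 12.8 ± 1.06 TPM with PRP, with plasma and in control.

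Of 32 tested adaptors and kinases, 6 rose and 10 fell with PRP, and 7 rose and 9 fell with plasma, with median log2 differences of -0.01 and -0.05. The 16 genes in each are near the 53.1% and 49.3% of all genes. The balance moved with scaling, to 8 higher and 8 lower with PRP and 9 higher and 7 lower with plasma after median centring, and by voom with median-of-ratios scaling to 8 and 9 with PRP and 12 and 10 with plasma. MAP3K14, the kinase of the non-canonical route, fell to 6.24 ± 0.54 TPM with PRP and 6.19 ± 0.50 with plasma, against 12.9 ± 0.68 in control (limma adjusted p = 2.33e-07 and 2.74e-07). IKBKE, an IkB kinase relative, was 15.6 ± 0.80, 15.4 ± 1.40 and 5.90 ± 0.68 TPM in the order PRP, plasma and control (adjusted p = 3.44e-08 and 5.48e-08). The related kinase TBK1 fell to 28.6 ± 1.45 and 29.7 ± 0.79 TPM with PRP and plasma, against 35.1 ± 0.54 in control. Of the canonical kinase complex, CHUK fell (log2 differences -0.17 with PRP and -0.24 with plasma, limma adjusted p = 0.0237 and 0.00306). IKBKB, its main catalytic partner, was 13.3 ± 1.41, 12.1 ± 0.37 and 12.7 ± 0.63 TPM (adjusted p = 0.568 and 0.498). IKBKG, the scaffold of that complex, fell by 0.27 and 0.28 on the log2 scale, but a near-identical pseudogene can share its reads, so its value is uncertain. SHARPIN, part of the linear ubiquitin ligase, rose by 0.28 with PRP and 0.31 with plasma, and the ubiquitin ligase TRAF6 by 0.46 and 0.41. The adaptor CARD10 fell by 0.45 in each.

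Of 24 other tested inhibitors and modulators, 6 rose and 7 fell with PRP, and 6 rose and 6 fell with plasma, with median log2 differences of -0.01 and -0.02. These 13 and 12 genes are near the 53.1% and 49.3% of all genes. With PRP the balance turned to 7 higher and 5 lower after median centring and to 9 and 7 by voom with median-of-ratios scaling. Of the genes for nuclear IkB proteins, BCL3 and NFKBIZ rose. NFKBID, another of them, was 3.52 TPM with PRP, 3.49 with plasma and 3.57 in control and did not pass (limma adjusted p = 0.839 and 0.827). BCL3, which can bind the NFKB2 product, was 38.7 ± 1.93 TPM with PRP, 38.1 ± 4.59 with plasma and 19.7 ± 1.73 in control. NFKBIZ was 7.00 ± 0.11, 8.23 ± 0.64 and 3.54 ± 0.28 TPM in the same order (limma adjusted p = 6.02e-07 and 1.06e-07). ZC3H12A, a ribonuclease that degrades inflammatory transcripts, was 24.7 ± 0.28, 25.5 ± 4.70 and 10.8 ± 1.01 TPM. The cytoplasmic inhibitor NFKBIB fell to 50.95 ± 3.04 and 53.8 ± 3.19 TPM, against 63.7 ± 2.44 in control (adjusted p = 0.000179 and 0.00174), while NFKBIA and NFKBIE rose. TAX1BP1, which assists TNFAIP3, fell by 0.28 with PRP and 0.20 with plasma on the log2 scale. NFKBIL1 fell by 0.37 and 0.26, and PDLIM2, known from mouse to promote the breakdown of RELA, by 0.36 and 0.46.

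Of 33 tested target genes, 25 rose and 3 fell with PRP, and 27 rose and 3 fell with plasma, with median log2 differences of 0.64 and 0.69, where 21.7% and 20.3% of all genes rose and 31.5% and 29.0% fell. CXCL2, CXCL10 and MMP9, at most 0.789, 0.736 and 0.427 TPM in control, passed the filter only through treated libraries, which favours rises. CXCL3, C3, SAA1 and SAA2 also needed treated libraries to pass. Their lowest control libraries had 0.598, 0.903, 0.282 and 0.382 TPM, and these genes count among the rises with both treatments. A filter at 5 TPM left 25 target genes, of which 19 rose and 2 fell with PRP, and 20 rose and 2 fell with plasma. That filter, too, can be passed through treated libraries alone. The chemokine genes CXCL1 and CCL20 had log2 differences of 1.83 and 1.59 with PRP and 1.87 and 1.68 with plasma. LCN2, which binds bacterial iron carriers, had 1.04 with PRP and 1.36 with plasma. The genes that fell were BCL2L1, a survival factor, GADD45B, a stress gene, and PTGS2, which makes prostaglandin precursors. PTGS2 was 3.78 ± 0.29 TPM with PRP, 3.42 ± 0.40 with plasma and 5.28 ± 0.52 in control (limma adjusted p = 0.00228 and 0.000386). GADD45B fell by 0.48 with PRP and 0.31 with plasma, and BCL2L1 by 0.37 and 0.27. Between PRP and plasma, the matrix protease gene MMP9 was the 1 gene of these lists that passed, at 6.04 ± 1.17 TPM with PRP and 2.29 ± 0.53 with plasma, a log2 difference of 1.10 (limma adjusted p = 0.00544). Without the 3 libraries numbered 1, none of the target genes passed there.

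**Figure D4:**
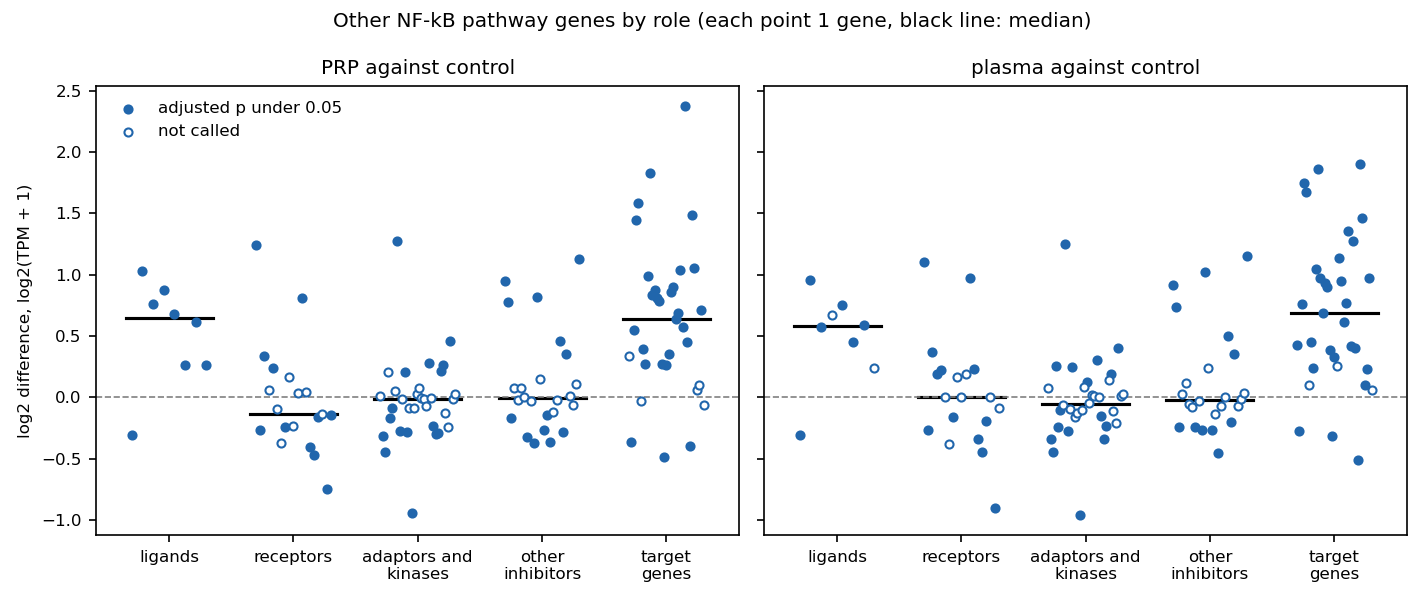
Differences in log2(TPM + 1) of the tested pathway genes by role, for PRP against control and plasma against control, with 1 point per gene, filled at limma adjusted p under 0.05, and the median as a line. Medians of ligands and target genes lie between 0.58 and 0.69, and those of the other 3 lists between -0.14 and 0.01.

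The genes with the most similar profile over the 12 libraries were found by the mean absolute difference between profiles scaled to mean 0 and SD 1, a measure that the step between treated and control libraries dominates. For NFKBIA they were PSME2 (0.094 SD), PTGES (0.102 SD) and ZC3H12A (0.115 SD). PSME2 was 294 TPM with PRP, 292 with plasma and 184 in control. For TNFAIP3 they were CXCL8 (0.123 SD), CXCL1 (0.155 SD) and SERPINA3 (0.158 SD), and for NFKB2 CPSF1 (0.1 SD), NALF2 (0.121 SD) and TMX3 (0.122 SD). TMX3 was 17.9 TPM with PRP, 18.2 with plasma and 26.2 in control.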

How the data were processed

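Per the file headers, each deposited table gives length, effective length, TPM and an estimated count of reads for 20375 genes, with a decimal comma. In 2 plasma libraries the TPM column carries the library's name. The submitters' processing notes name Salmon and hg38, with no version; the transcript set and use of strand are not given in the sources used here. Per the labels' protocols, RNA was polyadenylated RNA in Watchmaker mRNA libraries. Recomputing TPM from reads over effective length gave the deposited values (within 1% plus 0.01 TPM) for 20375 of 20375 genes.

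The main test used TPM, and the estimated counts, given with decimal commas, entered only as an alternative, by limma voom. limma-trend (limma 3.58.1, R 4.3.3) was fitted to log2(TPM + 1) of the 12517 genes that reached 1 TPM in 4 or more libraries, 1 term for each group, all 12 libraries together (9 residual degrees of freedom), two-sided, with Benjamini-Hochberg adjustment. Fold changes on this scale understate those of low genes. Members and lists were chosen with earlier results of these data known. Beside the members, the text names up to 3 higher and 3 lower genes per pathway list with the smallest adjusted p against control, those that passed between PRP and plasma, and the kinases CHUK, IKBKB, IKBKG and MAP3K14. Further genes are named where a limit called for them. Gene positions were checked in GENCODE release 29 for overlaps. No pair of replicates agreed within sampling noise (chi-square per gene at least 3.79). Intervals and depths cover counting or library spread only.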

Additional observations from a re-analysis of the deposited data

How the results depend on the processing

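The alternatives were other pseudocounts, other filters, median centring, voom on estimated reads under 2 scalings, fits of only the 8 libraries compared, each library left out, the 3 libraries numbered 1 left out, and the replicate number as a block. NFKBIA, TNFAIP3, LTB, NFKB2 and RELA passed against control with both treatments in 22 of 22 alternatives. Leaving out 1 library gave 7 to 8 called members with PRP, 6 to 9 with plasma and 0 to 0 between PRP and plasma. Without the 3 libraries numbered 1 the count was 5 with PRP, in place of 8, and 5 with plasma, in place of 9, a fit with fewer samples. With the replicate block the counts were 8 with PRP, 9 with plasma and 0 between them, as without it. The numbers share no stated source. Deviations of same-numbered libraries had correlations from -0.067 to 0.304, most of them positive, and several but not all libraries correlated best with their own number. In each group replicates 3 and 4 differed least, with a chi-square per gene of 3.79 in control, 4.52 with plasma and 7.11 with PRP. Replicate 1 differed most from replicate 3 or 4, at 31.26, 22.1 and 20.03. Whether the numbers mark a shared source was not tested. Differences that did not pass changed sign in some alternatives. REL with PRP was 0.0001 with a pseudocount of 5, 0.0637 with median centring, 0.0711 with voom under median-of-ratios scaling, 0.036 with voom under library totals, and -0.0501 to 0.0372 with 1 library left out; with plasma it was -0.0013 to 0.1145 with 1 left out. RELA between PRP and plasma was 0.0064 with median centring, and NFKB2 0.0066 without the libraries numbered 1. With 1 library left out, the differences between PRP and plasma were -0.0405 to 0.0703 for NFKB1, -0.0958 to 0.0424 for NFKB2, -0.1148 to 0.001 for REL, -0.0412 to 0.0353 for RELA, -0.0864 to 0.0064 for RELB, -0.0653 to 0.0623 for NFKBIE and -0.1259 to 0.0073 for TNFAIP3. The cause of these changes was not tested. A filter at 5 TPM left 5 ligands tested, of which 4 rose and 1 fell with PRP. Among the 10 members depth limits LTB most, with as few as 22 reads in a library. Some tested genes of the other lists had fewer, such as TNF with 11 to 17 in control.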

Other observations

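Some pathway genes lay below the filter and were not tested. TNFRSF1B, the second TNF receptor, was 0.369 to 1.05 TPM with PRP (34 to 58 reads), 0.445 to 0.839 with plasma (43 to 81 reads) and 0.220 to 0.324 in control (19.6 to 30 reads), with no overlap between treated and control libraries. TNFRSF13C, a receptor that engages the non-canonical route in B cells, was 0.467 to 0.717 TPM with PRP, 0.514 to 0.746 with plasma and 0.745 to 0.956 in control, where the PRP libraries lay below control and the highest plasma library reached it. TRAF1, an adaptor induced by NF-kB in many cells, was 0.300 to 0.412 TPM with PRP, 0.333 to 0.564 with plasma and 0.408 to 0.649 in control; its 3 groups overlapped. CSF2, a haematopoietic growth factor and NF-kB target, had 2 to 8 reads with PRP, 1 to 5 with plasma and 5 to 9 in control. These genes were chosen after their values were seen.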
